A study of Homo sapiens with 6 samples.

Results

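Nuclear pore proteins (nucleoporins) and the receptors that carry cargo through the pore were followed as a set of 52 genes chosen by symbol. They comprised 25 nucleoporins, 17 importins, 7 exportins and the Ran cycle genes RAN, RANGAP1 and RCC1. All 52 symbols matched a row of the deposited count table by Ensembl identifier, among 64299 genes listed, and all 52 passed the filter on low counts that left 16243 genes for testing. The libraries came from HEK293T, a transformed human embryonic kidney line used for plasmid transfection (the series description writes HEK293). The first group of 3 libraries came from cells transfected with an expression plasmid named ERbeta (written ER-β in the series description). The other group of 3 came from cells transfected in the same way, with the reagent FuGene 6, with the empty vector, EV_Ctrl. What ER-β stands for is not spelled out in the labels. It is taken here, as background, to be a designed protein of β-strands that is sent to the endoplasmic reticulum (ER), and not an estrogen receptor. The labels give neither the time after transfection nor the share of cells that took up the plasmid, so each library averages over cells with and without it, and fewer cells carrying an mRNA cannot be told apart from less of it per cell.

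The nuclear pore is a ring-shaped channel through the nuclear envelope. Its scaffold is built from the Y complex and the inner ring, its channel is filled by nucleoporins rich in phenylalanine-glycine repeats, and filaments reach into the cytoplasm and into a nuclear basket. Importins bind nuclear localisation signals in the cytoplasm and exportins bind export signals in the nucleus. The small GTPase Ran sets the direction of both, being loaded with GTP in the nucleus by RCC1 and driven to hydrolyse it in the cytoplasm by RANGAP1. Artificial β-sheet proteins that aggregate in the cytosol have been reported to disturb this machinery, unlike forms of these proteins kept in the ER. The question addressed here is whether the mRNA of the machinery differed between ERbeta and EV_Ctrl. The libraries measure mRNA, not the place or amount of the proteins.

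Depth was 13149304 to 16531368 counts per ERbeta library and 6833442 to 27101644 per EV_Ctrl library, and the 52 genes together took 0.949% to 1.13% of them. Levels are given as CPM, counts per 1e6 counts after TMM normalisation. The controls were not alike. On the first principal component of log2 CPM, which held 59.6% of the variance, the ERbeta libraries lay at -16.7, -14.4 and -43.2 and EV_Ctrl 2 at -14.0, whereas EV_Ctrl 1 and 3 lay at 46.3 and 42.04. EV_Ctrl 2 thus stood apart from the other controls and beside the ERbeta libraries. Libraries also differed in how level varied with GC content: genes with 40% GC lay 0.14, 0.082 and 0.34 log2 units from their own mean in ERbeta 1, 2 and 3, against -0.37, 0.11 and -0.30 in EV_Ctrl 1, 2 and 3. Results below are therefore also given without EV_Ctrl 2, and with a correction in which each library's trend of level on GC content was removed. EV_Ctrl 2 was singled out because it lay beside the ERbeta libraries, so calls made without it depend on that choice. Of all genes, edgeR then called 13.5% higher and 0.775% lower, or 6.26% and 3.96% with GC correction as well. All 8 markers of HEK293T examined were present in every library (3.85 to 984 CPM), and of 9 markers of other cell types 8 were under 1 CPM throughout, 5 of them with 0 reads, while COL1A1 was at 13.5 to 31.0 CPM.

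None of the 52 genes passed edgeR's quasi-likelihood test of ERbeta against EV_Ctrl (Benjamini-Hochberg over all genes, threshold 0.05), in which the smallest adjusted p of a member was 0.397 and 0% of the 16243 genes were called. A positive log2 fold change, higher in ERbeta, was found for 36 of the 52, against 48.3% of all genes tested. The median was 0.11 over the 52 and -0.012 over all genes. At an unadjusted p under 0.05 in edgeR 8 members were higher and 0 lower, against 9.54% and 2.88% of all genes. These were NUP54, KPNA3, KPNA4, KPNA5, IPO11, TNPO1, XPO1 and XPOT. The groups did not overlap for 6 members, NUP54, AAAS, KPNA1, KPNA3, KPNA5 and XPOT, all higher in ERbeta, where 10.2% of all genes were higher without overlap. DESeq2's test called 0 of the 52 members (smallest adjusted p 0.06, with none given for TPR), against 0.432% of all genes called higher and 0.00617% lower, 0.438% in all. limma-voom called 0 of the 52 as well, against 0.00616% of all genes.

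**Figure D1:**
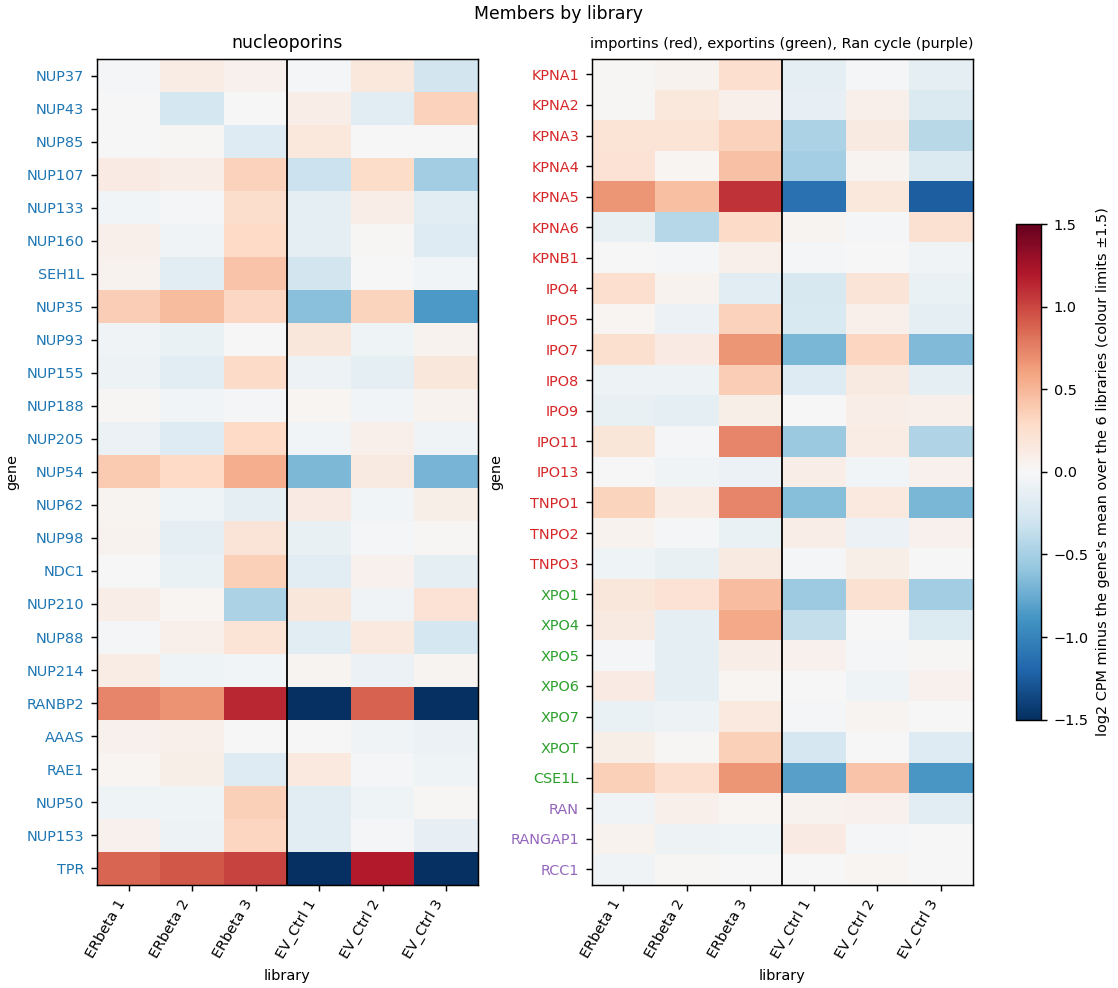
Level of each of the 52 genes (rows) in each library (columns), as log2 CPM minus the gene's mean over the 6 libraries, red above and blue below that mean, with ERbeta left of EV_Ctrl. The deepest blue is in EV_Ctrl 1 and 3 for TPR, RANBP2 and KPNA5, and EV_Ctrl 2 is coloured like the ERbeta libraries for TPR and RANBP2 and more palely than they are for KPNA5.

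Among the nucleoporins the widest differences were those of TPR and RANBP2. TPR, the coiled-coil protein that builds the nuclear basket, had 357, 372 and 394 CPM in ERbeta 1, 2 and 3, against 51.5, 447 and 46.2 CPM in EV_Ctrl 1, 2 and 3. EV_Ctrl 2 was the highest of the 6 libraries, and EV_Ctrl 1 and 3 lay far below every other. RANBP2, the large SUMO ligase and Ran-binding protein of the cytoplasmic filaments, had 268, 256 and 351 CPM in ERbeta, against 50.02, 298 and 47.9 CPM in EV_Ctrl, with EV_Ctrl 2 inside the ERbeta range and EV_Ctrl 1 and 3 again far below. The log2 fold change was 1.03 for TPR (95% interval -0.82 to 2.89, edgeR adjusted p 0.572) and 1.13 for RANBP2 (-0.41 to 2.68, adjusted p 0.475). Neither passed, and in both genes the controls differed among themselves by more than the group means differed. Without EV_Ctrl 2 the log2 fold changes were 2.95 and 2.58 and both passed (edgeR adjusted p 5.67e-07 and 2.83e-06), as did 13.5% of all genes in that direction. Without EV_Ctrl 1 and 3 the log2 fold changes were -0.25 and -0.026. With GC correction and all 6 libraries they were 0.86 and 0.88, and with GC correction and without EV_Ctrl 2 2.43 and 1.96, both passing. RANBP2 has near-identical copies in the RGPD genes, so its counts are uncertain to the extent that reads were shared.

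Both mRNAs are long and poor in GC, and a stretch of coding sequence is printed to illustrate the GC content. The stretches below were read from GRCh38 at the coordinates of GENCODE 29 exons, each 90 bases, 5′ to 3′ on the coding strand, with G and C in capitals. They were chosen to have a GC content near that of the gene's whole coding sequence, so they add nothing to that value. They are set against NUP62 and RANGAP1, members with GC-rich coding sequences (60.8% and 58.0%) whose levels hardly varied. Members poor in GC differed among themselves, as given below. TPR is from exon 12 (chr1:186359840-186359929, minus strand), RANBP2 from exon 3 (chr2:108730781-108730870, plus strand), NUP62 from exon 3 (chr19:49909590-49909679, minus strand) and RANGAP1 from its first coding exon (chr22:41280955-41281044, minus strand).
TPR: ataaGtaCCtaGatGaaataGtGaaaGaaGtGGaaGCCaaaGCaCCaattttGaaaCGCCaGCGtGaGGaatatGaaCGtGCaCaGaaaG
RANBP2: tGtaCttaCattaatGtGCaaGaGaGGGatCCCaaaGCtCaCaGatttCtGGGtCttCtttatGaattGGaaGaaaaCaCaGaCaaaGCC
NUP62: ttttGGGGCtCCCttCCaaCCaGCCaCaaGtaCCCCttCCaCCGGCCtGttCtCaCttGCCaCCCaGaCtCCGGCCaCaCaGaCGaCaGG
RANGAP1: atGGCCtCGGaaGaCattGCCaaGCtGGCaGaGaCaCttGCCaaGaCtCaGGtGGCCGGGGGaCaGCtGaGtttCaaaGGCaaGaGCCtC
G and C make up 41.1% of the stretch of TPR and 40% of that of RANBP2, against 61.1% in NUP62 and 57.8% in RANGAP1. The coding sequences hold 7089 bases in TPR and 9672 in RANBP2. On GRCh38 the TPR gene lies at chr1:186311652-186375693 on the minus strand and RANBP2 at chr2:108719481-108785811 on the plus strand, and counts of both are sums over annotated exons.

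The drop of TPR and RANBP2 lay between control libraries, so it was set against the rest of the transcriptome there. The mean of EV_Ctrl 1 and 3 over EV_Ctrl 2 was -3.19 on the log2 scale for TPR and -2.60 for RANBP2, which ranked 19 and 40 from the lowest of 10802 genes with a mean of at least 10 CPM. In all, 77 of these genes (0.713%) were at least 4-fold lower in EV_Ctrl 1 and 3 than in EV_Ctrl 2. Their longest transcripts had a median length of 8306 bases and a median GC content of 37.5%, against 3943.5 bases and 47.5% over the 10802 genes. At a limit of 2-fold there were 658 genes (6.09%), 5 of them members: CSE1L, KPNA5, NUP35, RANBP2 and TPR. Members with a long coding sequence did not all drop. Of 7 members with a coding sequence over 5000 bases, TPR and RANBP2 had coding GC contents of 41.6% and 40.1%. The other 5, NUP205, NUP98, NUP188, NUP214 and NUP210, had 44.9% to 59.3%, and their log2 ratio of EV_Ctrl 1 and 3 over EV_Ctrl 2 lay between -0.12 and 0.25. Taken by longest transcript, other long members poor in GC differed among themselves. The log2 ratio was 0.19 for NUP155 (8143 bases, 41.8% GC), -0.29 for XPO4 (9921 bases, 37.8%) and -0.40 for KPNA4 (8981 bases, 39.1%). It was -0.80 for TNPO1 (11183 bases, 37.2%) and -1.34 for KPNA5 (11311 bases, 34.4%).

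**Figure D2:**
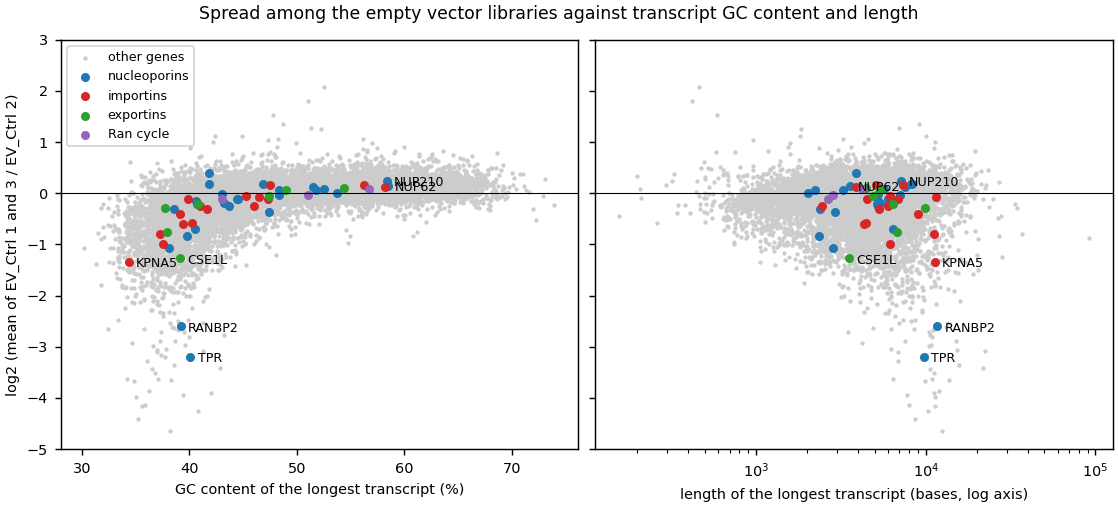
Log2 ratio of the mean of EV_Ctrl 1 and 3 over EV_Ctrl 2 for each gene, against the GC content (left, %) and the length (right, bases, log axis) of its longest transcript, with the 52 genes coloured by class over all other genes in grey. TPR and RANBP2 lie at -3.19 and -2.60, below the other members, and the members with higher GC content lie near 0.

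The central channel was led by NUP54. NUP54 (chr4:76114659-76148515, minus strand), which joins NUP62 and NUP58 in the channel, had 59.7, 55.7 and 66.3 CPM in ERbeta, against 28.4, 49.9 and 27.9 CPM in EV_Ctrl. All ERbeta libraries lay above all controls, EV_Ctrl 2 being the nearest. The log2 fold change was 0.76 ± 0.23 (SE), with an unadjusted p of 0.0118 and an adjusted p of 0.397 in edgeR. It was 0.42 with GC correction, 1.11 without EV_Ctrl 2 and 0.56 with both, where it passed (adjusted p 0.00565). NUP62, its partner in the channel, had 156, 146 and 138 CPM in ERbeta, against 166, 148 and 162 CPM in EV_Ctrl. These ranges overlapped, and the log2 fold change of -0.11 had a 95% interval of -0.34 to 0.12. NUP98, a channel nucleoporin that also binds chromatin, had 238, 207 and 263 CPM in ERbeta, against 212, 226 and 231 CPM in EV_Ctrl, again overlapping (log2 fold change 0.08, interval -0.18 to 0.34). NUP62 shares 626 exonic bases with ATF5 on the opposite strand, and the strand setting of the counting is not given in the sources used here, so its counts may include reads of that gene.

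In the scaffold, 5 of 7 Y complex genes (median log2 fold change 0.13) and 3 of 5 inner ring genes (median 0.032) had positive log2 fold changes. With GC correction 3 of 7 and 2 of 5 were positive, and both medians turned negative, to -0.029 and -0.058. NUP107, a core subunit of the Y complex, had 139, 137 and 163 CPM in ERbeta, against 102, 155 and 88.8 CPM in EV_Ctrl, and its groups overlapped through EV_Ctrl 2. Its log2 fold change was 0.34 ± 0.21, or 0.62 without EV_Ctrl 2, which passed (adjusted p 0.00723), and 0.033 with GC correction. NUP160, another Y complex subunit, had 148, 135 and 172 CPM in ERbeta, against 127, 142 and 123 CPM in EV_Ctrl (log2 fold change 0.22 ± 0.12). For NUP160 ERbeta 2 lay below EV_Ctrl 2, so these groups overlapped as well. NUP35, an inner ring protein that touches the pore membrane, had 28.9, 30.9 and 27.7 CPM in ERbeta, against 14.4, 28.01 and 12.3 CPM in EV_Ctrl. EV_Ctrl 2 lay within the ERbeta range and EV_Ctrl 1 and 3 well under it. The log2 fold change of NUP35 was 0.65 ± 0.29, 1.15 without EV_Ctrl 2 (passing, adjusted p 0.000356) and 0.23 with GC correction.

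With GC correction 22 of the 52 members had a negative log2 fold change, among them 4 of 7 Y complex genes. Of these 22 members, NUP43 and NUP37 were the only ones with an unadjusted p under 0.05 in edgeR. NUP43 had 96.9, 80.6 and 96.4 CPM in ERbeta, against 104, 85.8 and 123 CPM in EV_Ctrl, a log2 fold change of -0.19 that was -0.45 with GC correction. NUP37 had 42.9, 47.3 and 45.9 CPM in ERbeta, against 42.9, 48.9 and 36.2 CPM in EV_Ctrl, where the log2 fold change of 0.085 became -0.37. Neither passed with all 6 libraries, and both were called lower with GC correction and without EV_Ctrl 2 (edgeR adjusted p 0.00195 and 0.0459). When transcript length was corrected too, NUP43 was still called there and NUP37 was not. Both were chosen for mention after their values were seen. NUP43 and NUP37 share 223 and 60 exonic bases with genes on the opposite strand.

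Of the other nucleoporins, NUP153 of the nuclear basket, which binds importins as cargo leaves the channel, had 309.7, 281 and 370.0 CPM in ERbeta, against 265, 291 and 273 CPM in EV_Ctrl (log2 fold change 0.21 ± 0.12, groups overlapping). AAAS, a scaffold protein of the cytoplasmic face, did not overlap between groups but differed little, with 100.05, 101 and 95.6 CPM in ERbeta, against 95.2, 92.6 and 90.4 CPM in EV_Ctrl. The other 13 nucleoporins, among them the membrane ring proteins NDC1 and NUP210 and the filament proteins NUP88 and NUP214, had log2 fold changes between -0.21 for NUP210 and 0.23 for SEH1L. Over all 25 nucleoporins 18 log2 fold changes were positive and the median was 0.093, which became 0.014 with GC correction, 0.17 without EV_Ctrl 2 and -0.002 when libraries were scaled by their totals alone. That last scaling moved the median of all genes to -0.10, against -0.012 with TMM. Summed CPM of the nucleoporins was 4198, 4016 and 4609 in ERbeta, against 3499.8, 4261 and 3531 in EV_Ctrl. Without TPR and RANBP2 the sums were 3574, 3387 and 3864 in ERbeta, against 3398, 3516 and 3437 in EV_Ctrl, and the groups then overlapped also apart from EV_Ctrl 2, since ERbeta 2 was below all controls.

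**Figure D3:**
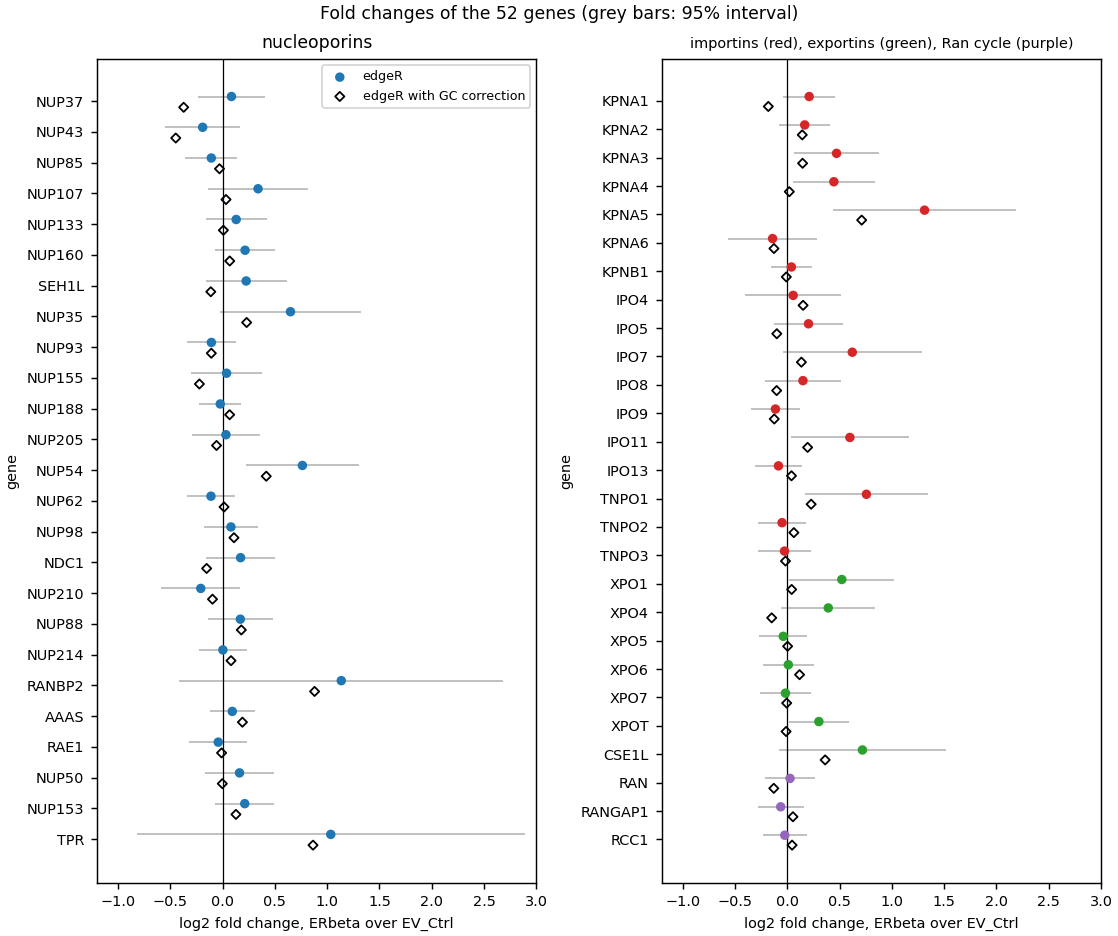
Log2 fold change, ERbeta over EV_Ctrl, of the 52 genes from edgeR with all 6 libraries (filled circles, grey bars the 95% interval) and with GC correction (open diamonds). The intervals of TPR and RANBP2 are the widest, and many of the higher values move toward 0 with GC correction.

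The 17 importins had a median log2 fold change of 0.17, with 12 positive, and of 0.040 with GC correction, with 10 positive. They divide into the importin alpha adaptors (KPNA genes), which bind the classical localisation signal, and the importin beta family, which carry cargo or the adaptor through the pore. Of the 6 importin alpha genes 5 were positive, the median log2 fold change was 0.33 (0.082 with GC correction), and 3 of these were higher without overlap between groups, against 10.2% of all genes. KPNA5 (chr6:116681187-116741866, plus strand) had 56.2, 48.7 and 75.4 CPM in ERbeta, against 16.3, 39.7 and 15.1 CPM in EV_Ctrl. The ERbeta libraries were all above the controls, and EV_Ctrl 2 lay more than 2-fold above EV_Ctrl 1 and 3. Its log2 fold change of 1.31 ± 0.38 was the largest of the 52 with all 6 libraries, with an unadjusted p of 0.00871 and an adjusted p of 0.397 in edgeR. It was 0.71 with GC correction, 1.94 without EV_Ctrl 2 and 0.97 with both, the last 2 passing (adjusted p 7.35e-05 and 0.000578). KPNA5 has the lowest transcript GC content of the set, 34.4%.

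KPNA3 had 64.9, 64.7 and 71.7 CPM in ERbeta, against 40.5, 61.8 and 42.3 CPM in EV_Ctrl, without overlap (log2 fold change 0.47 ± 0.17, 0.15 with GC correction). KPNA4, its closest paralog, had 78.4, 68.8 and 91.4 CPM in ERbeta, against 47.2, 69.3 and 58.1 CPM in EV_Ctrl, where EV_Ctrl 2 overlapped the ERbeta range (log2 fold change 0.45 ± 0.17, 0.02 with GC correction). Both passed without EV_Ctrl 2 (edgeR adjusted p 0.00302 and 0.0258), and neither did when GC content was also corrected. KPNA2, the most abundant importin alpha here, had 499, 546 and 519.6 CPM in ERbeta, against 453, 518 and 423 CPM in EV_Ctrl. EV_Ctrl 2 lay within the ERbeta range, and the log2 fold change was 0.17 with an interval of -0.079 to 0.41. KPNA1, whose groups did not overlap, had a log2 fold change of 0.21 that turned to -0.18 with GC correction and -0.30 with that and without EV_Ctrl 2. KPNA6 was at -0.14. KPNA paralogs are similar in sequence, and KPNA1 shares 1377 exonic bases with an antisense gene.

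In the importin beta family 7 of 11 log2 fold changes were positive, with a median of 0.057. KPNB1, importin beta itself, which carries importin alpha and its cargo, had 957, 933 and 1002 CPM in ERbeta, against 939, 958 and 917 CPM in EV_Ctrl. These 6 values lay close together, and the log2 fold change of 0.039 had a 95% interval of -0.16 to 0.24. TNPO1, transportin, the receptor of many RNA-binding proteins, had 373, 321 and 493 CPM in ERbeta, against 190.2, 327 and 184 CPM in EV_Ctrl. EV_Ctrl 2 lay just above ERbeta 2, and EV_Ctrl 1 and 3 were well under all ERbeta libraries. The log2 fold change of TNPO1 was 0.76 ± 0.25 (unadjusted p 0.0185, adjusted p 0.397, edgeR), 0.23 with GC correction and 1.09 without EV_Ctrl 2, where it passed (adjusted p 0.000987). Over the remaining 9 genes the log2 fold changes ran from -0.11 for IPO9 to 0.62 for IPO7, which passed without EV_Ctrl 2 together with IPO11 (1.04 and 0.84, adjusted p 0.00092 and 0.0157). IPO4 was the least abundant, at 2.89 to 3.89 CPM in ERbeta and 2.77 to 3.73 CPM in EV_Ctrl. IPO4 shares 3470 of its 5007 exonic bases with a readthrough gene on the same strand, so its level is uncertain, and IPO11 shares 1279 exonic bases with LRRC70.

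**Figure D4:**
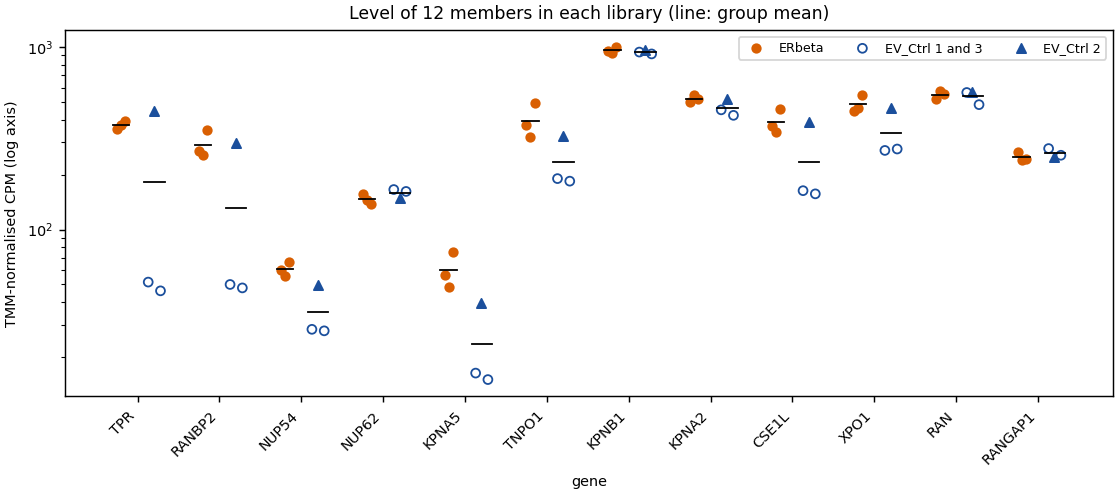
CPM (log axis) of 12 of the genes in each library, with ERbeta as orange circles left of EV_Ctrl, EV_Ctrl 1 and 3 as open blue circles, EV_Ctrl 2 as a blue triangle and lines at group means. For TPR, RANBP2, CSE1L and XPO1 the triangle lies among or above the ERbeta circles, while KPNB1, RAN and RANGAP1 lie close together in all libraries.

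Among the nucleoporins, importins, exportins and Ran cycle genes, the exportins had the highest median log2 fold change, 0.30, with 5 of 7 log2 fold changes positive. XPO1, CRM1, the receptor of the leucine-rich export signal, had 447, 462 and 547 CPM in ERbeta, against 271, 466 and 276 CPM in EV_Ctrl. EV_Ctrl 2 lay within the ERbeta range. The log2 fold change of XPO1 was 0.52 ± 0.22 (unadjusted p 0.0438, adjusted p 0.397, edgeR), 0.83 without EV_Ctrl 2 (adjusted p 0.000852, passing) and 0.042 with GC correction. CSE1L, which returns importin alpha to the cytoplasm, had 369, 342 and 456 CPM in ERbeta, against 163, 387 and 157 CPM in EV_Ctrl, again with EV_Ctrl 2 inside the ERbeta range. Its log2 fold change was 0.72 ± 0.34, and 0.36 with GC correction, neither passing. It was 1.29 without EV_Ctrl 2 and 0.66 with GC correction as well, both passing (edgeR adjusted p 0.000117 and 0.0022). XPOT, the exportin of tRNA, had 286, 273 and 345 CPM in ERbeta, against 226, 269 and 237 CPM in EV_Ctrl. The groups of XPOT did not overlap, yet ERbeta 2 and EV_Ctrl 2 were nearly level, and the log2 fold change of 0.30 ± 0.12 was -0.011 with GC correction. XPO4 had 87.02, 71.5 and 117 CPM in ERbeta, against 61.5, 79.7 and 68.5 CPM in EV_Ctrl (log2 fold change 0.39 ± 0.19, -0.15 with GC correction). XPO5, the exportin of microRNA precursors, XPO6, that of actin, and XPO7 had log2 fold changes of -0.038, 0.01 and -0.017. With GC correction the median of the 7 exportins was 0.0036, and without EV_Ctrl 2 it was 0.39.

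The Ran cycle genes varied little. RAN had 522, 572 and 553 CPM in ERbeta, against 564, 569 and 484 CPM in EV_Ctrl. RANGAP1 had 266, 242 and 244 CPM in ERbeta, against 278, 251 and 255 CPM in EV_Ctrl. RCC1 had 106, 111 and 109 CPM in ERbeta, against 109.6, 112 and 109.9 CPM in EV_Ctrl. All 3 overlapped between groups. The 95% intervals of the log2 fold change were -0.21 to 0.26 for RAN, -0.28 to 0.16 for RANGAP1 and -0.23 to 0.18 for RCC1. The signs of these small values turned with GC correction, to -0.13, 0.055 and 0.046. RCC1 shares 242 exonic bases with SNHG3 on the same strand, and reads of RAN pseudogenes came to 0.807% of those of RAN.

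The differences went with GC content. Over the 52 genes the log2 fold change and the GC content of the longest transcript had Pearson's r = -0.69 and Spearman's rho = -0.82, against -0.55 and -0.61 over the 16091 tested genes with a GC value. These correlations are across genes that share the same 6 libraries and are given as a description. Of 23 members under 42% GC 22 had a positive log2 fold change, with a median of 0.45, and all 8 members with an unadjusted p under 0.05 in edgeR were among them. Of 29 members at or above 42%, 14 were positive, the median was -0.017 and 0 had such a p. This limit was set after the data were seen. The shares of all tested genes on each side of it were not computed. These counts therefore cannot set the members apart from other genes of like GC content. With GC correction 13 of the 23 and 17 of the 29 were positive, with medians of 0.033 and 0.014. Over all 52 the correction left 30 positive log2 fold changes, against 47.4% of all genes, turned the sign of 20, and left 4 with an unadjusted p under 0.05: NUP54 and KPNA5 higher, NUP37 and NUP43 lower. Over all genes 5.65% were higher and 5.01% lower at that p, so the members' counts were near the background. The correction called 0 members, and 0% of the 16091 genes tested with it.

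Among the settings of edgeR, DESeq2 and limma-voom run, members were called only where EV_Ctrl 2 was left out. Without it edgeR called 13 of the 52 higher and 0 lower, where 13.5% of all genes were called higher and 0.775% lower. These were CSE1L, IPO11, IPO7, KPNA3, KPNA4, KPNA5, NUP107, NUP35, NUP54, RANBP2, TNPO1, TPR and XPO1. With GC correction as well, CSE1L, KPNA5, NUP54, RANBP2 and TPR were called higher and NUP37 and NUP43 lower, where 6.26% and 3.96% of all genes were. With a correction for GC content and transcript length in its place, 6 were called higher and 3 lower, against 7.5% and 4.81% of all genes. Those called lower were NUP43, NUP155 and XPO4. Without both EV_Ctrl 1 and 3 the lone control left had to be assumed to vary like the ERbeta libraries. In that fit the sign of 16 of the 52 log2 fold changes differed. EV_Ctrl 2 lay within the ERbeta range for 39 of the 52, against 60.5% of all genes, and EV_Ctrl 1 and 3 both lay below all ERbeta libraries for 25, against 25.8% of all genes. The part of GC content or length in these differences was not tested.

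The authors' deposited table gave 3 of the 52 an adjusted p under 0.05, all higher in ERbeta, where 3.35% of the 11150 genes with an adjusted p in that table were called higher. In the authors' deposited table NUP54 had a log2 fold change of 0.59 (adjusted p 0.0194), KPNA5 0.62 (adjusted p 0.0442) and TNPO1 0.55 (adjusted p 0.0442). The table rests on the same 6 libraries. DESeq2's test as run here gave larger log2 fold changes for them, 0.76, 1.33 and 0.75, and called 0 members. It adjusted over 16219 genes. The values of the 2 are thus not on a like scale, and the reason was not tested. These 3 genes are among the 8 with an unadjusted p under 0.05 in edgeR, and none of them passed the adjusted test there. TPR and RANBP2 had log2 fold changes of 0.18 and 0.27 in the authors' DESeq2 comparison (adjusted p 0.421 and 0.277). Their edgeR values here were 1.03 and 1.13.

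Levels between genes were compared per kilobase of the longest transcript, averaged over the 6 libraries. RAN at 204 CPM per kilobase and KPNA2 at 201 were the highest, followed by KPNB1 at 155. IPO4 at 0.901 and KPNA5 at 3.70 were the lowest. The median was 25.9 for nucleoporins, with NUP35 lowest at 8.38 and NUP85 highest at 51.9. It was 23.5 for importins, 45.8 for exportins, between 8.16 for XPO4 and 87.9 for CSE1L, and 60.6 for the Ran cycle. The receptors thus spanned a wider range of mRNA levels than the nucleoporins. The longest transcript of KPNA5 has 11311 bases, so a scale by a shorter transcript would place it higher.

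**Figure D5:**
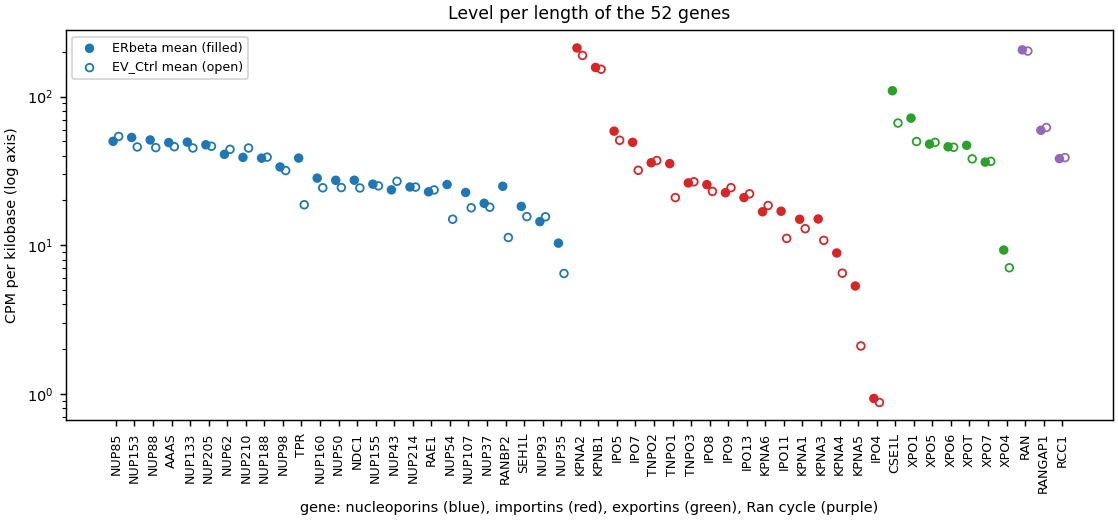
CPM per kilobase of the longest transcript (log axis) for the 52 genes, ordered within each class, with the ERbeta mean filled and the EV_Ctrl mean open. The importins run from KPNA2 at 201 down to IPO4 at 0.901 CPM per kilobase over all 6 libraries, and the nucleoporins from 51.9 to 8.38.

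The promoters of the set were searched for response elements of ER stress. RefSeq promoter windows of 300 bases on GRCh38.p14 were found for 47 of the 52 genes, among 27305, and were searched on both strands. The consensus ER stress element was in 0 of 47, against 0.081% of all windows, and the core of the unfolded protein response element, TGACGTGG, in 0 of 47, against 0.795%. At such low shares any 47 windows would be likely to hold none, so these counts cannot tell the set from the background. The consensus NRF1 site was in 3 (6.38%, against 1.36%), those of NUP50, NUP62 and NUP107. The ETS site CCGGAAGT was in 7 (14.9%, against 4.44%), those of IPO4, NUP35, NUP54, NUP160, RCC1, TNPO3 and XPO6. The CCAAT box, which is also the start of the ER stress element, was in 20 (42.6%, against 35.7%), the GC box GGGCGG in 26 (55.3%, against 44.6%) and TATAAA in 2 (4.26%, against 11.95%). The members' windows are richer in GC than all windows, with a median of 63.3% against 58.3%. A match describes letters in a window and is not a site shown to be bound.

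Other genes of the pathway were counted from lists beside the 52. Of 8 further pore genes, all tested, 4 had positive log2 fold changes and 0 passed in edgeR, while 1 of them had the pattern of TPR: AHCTF1 (ELYS), which seeds pores on chromatin, had 52.4, 43.8 and 62.4 CPM in ERbeta, against 12.9, 47.9 and 15.6 CPM in EV_Ctrl (log2 fold change 1.02 ± 0.46). The next smallest p-values of that list were those of NUP58, TMEM33 and NUP42, with log2 fold changes of 0.32, 0.38 and 0.15. All 3 turned negative with GC correction (-0.31, -0.27 and -0.29), and NUP58 and TMEM33 were called lower with GC correction and without EV_Ctrl 2 (edgeR adjusted p 0.0171 and 0.035), as AHCTF1 was called higher (2.66e-05). Of 10 Ran cofactors and other receptors 8 were tested, KPNA7 and RGPD5 being too low, 3 were positive and 0 passed. RANBP17, RANBP6, RCC2 and SNUPN led that list, with log2 fold changes of 0.32, 0.45, -0.20 and -0.12 (0.12, 0.064, -0.09 and -0.043 with GC correction). Of 18 mRNA export genes 10 were positive and 0 passed. THOC1 and THOC7, subunits of the THO complex, were at 0.64 and 0.53 with an unadjusted p of 0.0204 and 0.0326 in edgeR, ZC3H11A at 0.32 and THOC2 at 0.87. With GC correction they were at 0.22, 0.30, -0.15 and 0.52, so that ZC3H11A turned. ZC3H11A shares 11983 of its 12798 exonic bases with ZBED6 on the same strand, and its level is uncertain. THOC2, the largest THO subunit, had 182, 172 and 216 CPM in ERbeta, against 54.9, 198 and 56.1 CPM in EV_Ctrl, so that EV_Ctrl 1 and 3 were low there too.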

How the data were processed

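Per the labels' protocols, libraries were made with the TruSeq Stranded mRNA kit. The submitters' processing notes name TopHat2, featureCounts, DESeq2 and the build hg38. Tool versions, gene annotation, multi-mapping rule and strand setting are not stated there. Raw read counts per gene were deposited by the authors for each library. A second deposited table holds, per the file headers, the authors' DESeq2 comparison: a mean normalised signal, scores (a Wald statistic and a standard error) beside a log2 fold change, and raw and adjusted p-values. It was only set beside the values computed here. There were 0 columns outside the 6 libraries.

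Genes were filtered with filterByExpr (minimum count 10, minimum total 15) and tested with edgeR 4.0.16 (TMM, quasi-likelihood test, group only, Benjamini-Hochberg, threshold 0.05) in R 4.3.3. The steps were tested on simulated data. The biological coefficient of variation was 17.5%. Nothing in the labels says that replicates were separate cultures. The p-values therefore reflect the spread of these libraries only, and that spread may be technical. No 2 libraries of a group agreed within counting noise (chi-square per degree of freedom 4.99 to 37.6). Same-numbered libraries did not deviate together (correlations 0.22, -0.12 and -0.14).

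For GC correction each library's log2 CPM was fitted by loess (span 0.5) to the GC content of a gene's longest GENCODE 29 transcript, and the curve was removed (16091 genes, 99.1% of those tested). Alternatives were DESeq2 1.42.0 and its size factors, limma-voom 3.58.1, library size only, other filters, a replicate block and leaving out libraries. GC correction without EV_Ctrl 2 and a correction for GC content and length were added after the data were seen.

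The members and lists were chosen with earlier results of these data known. Values per library are given for 14 members named in any case and for up to 4 members of each class with the smallest p. Other members with such values were chosen after their values were seen.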

Additional observations from a re-analysis of the deposited data

How the results depend on the processing

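Genes called over the whole table numbered 0 in the main edgeR fit with all 6 libraries. Also with all 6, they numbered 51 with no filter on low counts, 71 with DESeq2's test, 1 with limma-voom and 20 with GC and length correction. With EV_Ctrl 2 left out they numbered 1646 with GC correction and 1982 with GC and length correction. Leaving out each library in turn gave 0 to 2324, the highest without EV_Ctrl 2 and 0 without any other. The exportin median was 0.0036 with GC correction, 0.00043 with the replicate block and GC correction, 0.063 without both EV_Ctrl 1 and 3, 0.021 with GC correction and EV_Ctrl 2 left out, 0.029 with GC and length correction and 0.070 with that and EV_Ctrl 2 left out. The Ran cycle median was -0.12 with library size only, 0.046 with GC correction, 0.047 with the block as well, 0.068 with GC correction and EV_Ctrl 2 left out, 0.045 with GC and length correction and 0.081 with that and EV_Ctrl 2 left out. The nucleoporin median moved from its 0.093 by less than the spread between libraries in all settings run, but that spread is wide beside a median of this size. It was 0.014 with GC correction and turned negative with library size only. The importin median of 0.17 also moved by less than the spread, yet was 0.040 with GC correction and 0.044 with that and EV_Ctrl 2 left out. Leaving out each library in turn, the nucleoporin median ran between 0.027 and 0.17 and the importin median between 0.11 and 0.26.

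Signs of log2 fold changes turned in 44 recomputed values of the 22 members chosen by the naming rule, all listed here. Over all 52 members 20 signs differed with GC correction, 16 without both EV_Ctrl 1 and 3 and 10 with library size only. Another 352 kept their direction and side of the threshold, and 22 kept their direction and newly passed. With GC correction, with the replicate block and GC correction, and with GC correction and EV_Ctrl 2 left out, in this order, NUP62 was at 0.014, 0.012 and 0.0091, KPNB1 at -0.0089, -0.0087 and -0.0084, RAN at -0.13, -0.13 and -0.15, RANGAP1 at 0.055, 0.052 and 0.068, RCC1 at 0.046, 0.047 and 0.087, XPOT at -0.011, -0.010 and -0.065, and XPO4 at -0.15, -0.15 and -0.26. KPNA4 was at -0.029 with the last of these. With GC and length correction, all libraries and then EV_Ctrl 2 left out, NUP62 was at 0.036 and 0.039, RAN at -0.15 and -0.18, RANGAP1 at 0.087 and 0.11, RCC1 at 0.045 and 0.081, KPNA4 at -0.018 and -0.080, and XPO4 at -0.25 and -0.40. XPOT was at -0.043 with the last. Library size only put NUP98 at -0.017, KPNB1 at -0.056 and RAN at -0.067. Without both EV_Ctrl 1 and 3 NUP107 was at -0.080, RANBP2 at -0.026, TPR at -0.25 and RAN at -0.049. Leaving out each library in turn, NUP98 ran between -0.0026 and 0.17 and RAN between -0.047 and 0.076. The cause was not tested.

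With the replicate number as a block, edgeR called 0 genes, as without it, and 0 with GC correction. The labels do not say whether libraries of the same number were handled together. Their same-number correlations of 0.22, -0.12 and -0.14 cannot decide it. The smallest exact two-sided permutation p that 3 against 3 libraries allow is 0.1, so no member was tested that way. EV_Ctrl 1, with 6833442 counts, was the shallowest library, and IPO4 at under 4 CPM was the member measured with the fewest reads.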
